A study of Mus musculus with 8 samples.

Results

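Voltage-gated sodium channel genes were followed in the auditory nerve of mice at postnatal day 21. The set was given by name as the neuronal alpha and beta subunit genes of the nerve. 8 of its genes were found among the 15035 genes of the table: the alpha subunit genes Scn1a, Scn2a, Scn3a, Scn8a and Scn9a, and the beta subunit genes Scn2b, Scn3b and Scn4b. (Scn2a1 is an older name of Scn2a and has no row of its own.) Bulk RNA sequencing was done on 4 wild-type mice (replicates 1 to 4) and 4 mice labelled heterozygous for Mef2c, a MADS-box transcription factor gene (replicates 5 to 8, called het-labelled libraries here). All were of the same age, and 1 library stands for the nerves of both cochleas of 1 mouse. The strain, the Mef2c allele, the sex of the mice and any Cre driver were not given in the sources used here. The design asks how the nerve's transcripts compare between mice with and without the heterozygous Mef2c genotype.

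An alpha subunit forms the pore and the voltage sensor of a sodium channel, and its opening drives the upstroke of the action potential. Beta subunits are single-pass membrane proteins with an immunoglobulin-like domain that tune gating and bind channels to other molecules. In myelinated axons such as those of spiral ganglion neurons, the neurons that carry sound signals from hair cells to the brain, channels are packed at the initial segment and the nodes of Ranvier, held there by ankyrin-G. Developing nodes are known to carry Nav1.2, the product of Scn2a, which Nav1.6, the product of Scn8a, replaces as myelin matures.

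Coding sequences show how alike the alpha genes are, which matters because reads from shared stretches cannot be given to 1 gene. The lines below are the coding strand around the ankyrin-G binding motif, by which alpha subunits are anchored at nodes. It lies in exon 17 of the GENCODE M21 transcript with the longest coding sequence of each gene (build GRCm38, the same assembly as mm10). Capitals mark the 27 bases of the motif.
Scn8a (chr15:101015993-101016064, plus strand): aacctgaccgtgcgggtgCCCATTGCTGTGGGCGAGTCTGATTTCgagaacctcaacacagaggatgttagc
Scn1a (chr2:66317834-66317905, minus strand): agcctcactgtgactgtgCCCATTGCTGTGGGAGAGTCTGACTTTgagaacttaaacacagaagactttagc
Scn2a (chr2:65717766-65717837, plus strand): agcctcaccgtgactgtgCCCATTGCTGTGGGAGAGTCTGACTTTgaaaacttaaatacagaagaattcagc
Scn3a (chr2:65494953-65495024, minus strand): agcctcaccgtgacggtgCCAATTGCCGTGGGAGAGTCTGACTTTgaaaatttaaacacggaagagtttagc
Scn9a (chr2:66526638-66526709, minus strand): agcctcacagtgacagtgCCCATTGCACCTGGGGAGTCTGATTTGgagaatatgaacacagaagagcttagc

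Scn1a and Scn2a differed at 5 of these 72 bases, with 0 differences inside the motif. Scn8a differed from Scn1a at 14 of them and from Scn2a at 16. Over whole coding sequences, Scn1a and Scn2a were 83.0% identical with a longest identical run of 188 bases, and Scn3a and Scn9a shared a run of 184 bases. Scn8a shared no run longer than 55 bases with any of the other listed alpha genes. Of the windows of 50 bases in the transcript, 8.53% in Scn3a, 7.58% in Scn2a, 5.48% in Scn1a and 5.36% in Scn9a also occurred in another annotated sodium channel gene, against 0.0527% in Scn8a and 0 windows in the beta genes. For a low gene beside an abundant one the stretch can weigh more than its own share. Spread evenly along the transcript, 61.6 of the mean 1689 normalized counts of Scn1a would lie in windows shared with Scn2a, whose own mean was 129. The windows that Scn1a shares with Scn3a would hold 58.1 and those with Scn9a 28.2, against own means of 30.6 and 44.0. How reads in shared windows were counted was not given in the sources used here, and the window of 50 bases was not matched to a read length. How much of the Scn2a, Scn3a and Scn9a values comes from shared windows is thus uncertain and was not tested. In wild-type library 1, where Scn1a had 989 normalized counts, the whole values of Scn3a and Scn9a were 6.5 and 1.3.

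Scn3a, Scn2a, Scn1a and Scn9a lie in that order along mouse chromosome 2 (between 65457118 and 66634962), followed by Scn7a. Scn8a is on chromosome 15 (100869858 to 101045938). The 3 beta genes are on chromosome 9, where Scn2b (45117782 to 45130070) and Scn4b (45138395 to 45154152) are neighbours on the plus strand and Scn3b (40269217 to 40291618) lies apart. The annotation has a transcript on the opposite strand that overlaps Scn1a, Scn3a, Scn9a, Scn2b or Scn3b, and a pseudogene on the strand of Scn9a. The library kit keeps strand, but whether the counting used it was not given in the sources used here.

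The values are read counts per gene divided by a size factor per library, called normalized counts below, and the libraries hold an estimated 13363385 to 21507181 reads. The targeted gene went against its label. Mef2c had 402.2 to 508.7 normalized counts in wild type and 583.3 to 735.1 in het-labelled libraries, so all directions below are between libraries as they are labelled. The log2 difference of Mef2c was 0.53, with a limma-trend p of 0.00128. Adjusted over all genes, the limma-trend p was 0.186, which does not pass the adjusted threshold. In the authors' deposited table the ratio of Mef2c was 1.44 with an FDR of 0.0162. The values are per gene, and the targeted part of Mef2c was not analysed here. The spiral ganglion and neuron markers were present in every library, with 0 of 22 at a value of 0, and their summed level was 289883 to 375107 normalized counts in wild type and 301799 to 366109 in het-labelled libraries. Xist was low in wild-type library 1 and in library 5, labelled heterozygote, and no label gives sex.

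Levels were compared between genes per kilobase of the longest annotated transcript. Scn4b was the highest of the 8 in every library, at 1715 ± 435 normalized counts per kb in wild type and 1871 ± 240 in het-labelled libraries (SD, n = 4 each). Its product, beta 4, is linked to alpha subunits by a disulfide bond and its short intracellular tail can block the open pore, which underlies resurgent sodium current in fast-firing neurons. The codons of that tail are in exon 4 (chr9:45149334-45149395, plus strand), in capitals.
Scn4b: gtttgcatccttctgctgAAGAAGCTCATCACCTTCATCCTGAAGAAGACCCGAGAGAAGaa

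Scn8a and Scn1a followed, at 355 ± 133 and 168 ± 63.4 normalized counts per kb in wild type (SD, n = 4 each). Scn8a lay above Scn1a in 8 of 8 libraries. Scn2b, the other disulfide-linked beta subunit gene, came next at 79.7 ± 22.7 normalized counts per kb in wild type. Scn3b and Scn2a were close to each other, with overall means of 19.6 and 14.5 normalized counts per kb, and Scn3b was the higher in only 5 of 8 libraries. Scn9a and Scn3a were the lowest, at 4.48 and 3.20 normalized counts per kb over all libraries, and their ranges overlapped. Thus the order of Scn3b against Scn2a and of Scn9a against Scn3a was within the spread between libraries.

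**Figure D1:**
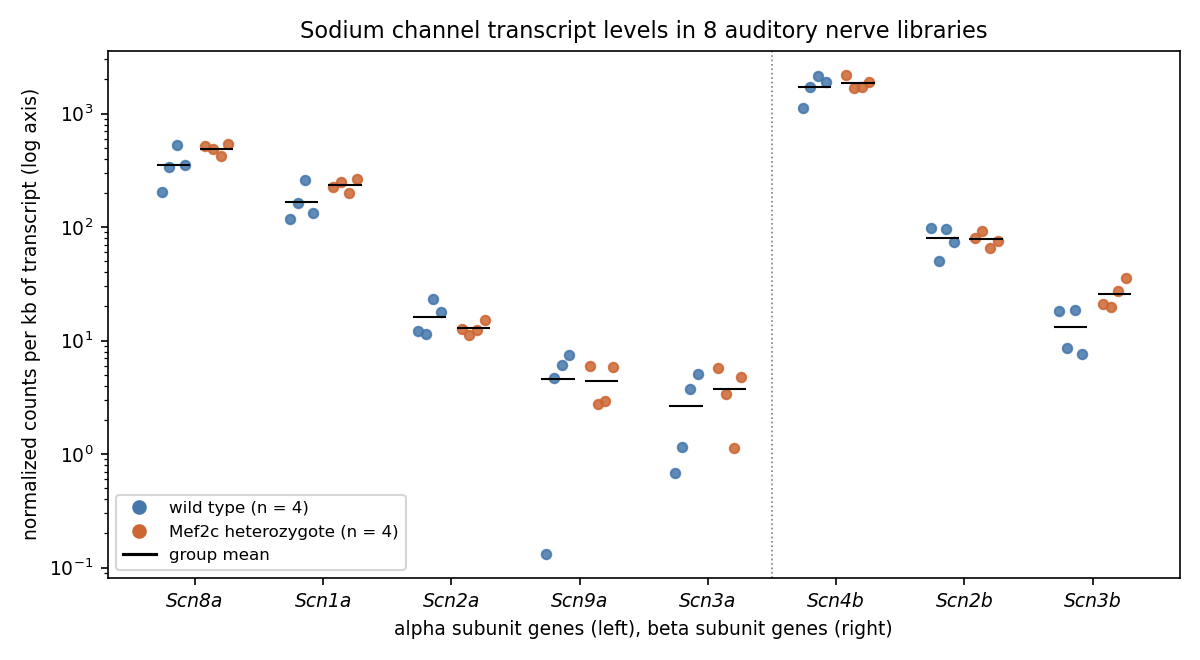
Normalized counts per kb of the longest transcript (log axis) for 5 alpha and 3 beta subunit genes; each point is 1 library, blue for wild type and orange for het-labelled libraries, and black lines are arithmetic group means. Scn4b is highest, Scn8a and Scn1a lead the alpha genes, and the lowest point is Scn9a in wild-type library 1.

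Of the summed level of the 5 alpha genes per kb, Scn8a made up 64.7% ± 3.06 in wild type and 65.8% ± 1.27 in het-labelled libraries (SD, n = 4 each). Scn1a made up 31.0% ± 3.92 and 31.4% ± 1.54. The share of Scn2a was 3.02% ± 0.63 in wild type and 1.72% ± 0.19 in het-labelled libraries (SD, n = 4 each), and each wild-type library lay above each het-labelled one. The highest share of Scn9a in any library was 1.43% and that of Scn3a 0.98%. The mature channel genes Scn8a and Scn1a thus held most of the alpha pool in both groups. The share of Scn2a did not overlap between the groups, but it was not tested, and the Scn2a counts themselves overlapped. It rests on the same counts as the Scn8a to Scn2a ratio below and is not a separate result.

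Between genotypes, none of the 8 genes differed past the adjusted threshold of 0.05. Across 14870 tested genes, 12 did (0.0807%), 1 of them higher (0.00672%) and 11 lower (0.074%) in het-labelled libraries. Before adjustment, Scn8a, Scn1a and Scn3b had a limma-trend p under 0.05, all higher in het-labelled libraries, which is 3 of 8 genes (37.5%) against 14.1% of all genes tested in either direction and 6.72% in the higher direction. None of the 8 was lower with such a p, against 7.34% of all genes. The median log2 fold change was 0.54 over the 8 genes and 0.02 over all genes, and 7 of the 8 had a positive value against 52.3% of all genes. Without wild-type library 1 the median of the 8 was 0.16 with 5 positive, and leaving out both libraries low in Xist gave a median of 0.02 with 4 positive. After removal of each library's trend with transcript length the median was 0.30 with 6 positive. All 8 passed the filter on low values.

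Scn8a, for the main nodal channel Nav1.6, had 2336, 3830.1, 6049 and 4042 normalized counts in wild-type libraries 1 to 4. The het-labelled libraries had 5909, 5524, 4875 and 6164. Wild-type library 1 was the lowest of all and wild-type library 3 lay inside the range of the other group, so the groups overlapped. The difference on the log2 scale was 0.54 (SE 0.22, 95% interval 0.06 to 1.02), for a limma-trend p of 0.0299 and, over all genes, an adjusted p of 0.316.

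Scn1a, for Nav1.1, a channel of neuronal cell bodies, initial segments and nodes, had its lowest and highest value in the same libraries as Scn8a. Wild-type libraries 1 to 4 had 989, 1359.9, 2171 and 1114 normalized counts, and libraries 5 to 8, labelled heterozygote, had 1898, 2089.8, 1684 and 2204. Wild-type library 1 was again the lowest and library 8 the highest, with wild-type library 3 next to it. The log2 difference was 0.54 (SE 0.20, 95% interval 0.10 to 0.99), for a limma-trend p of 0.0201 and, over all genes, an adjusted p of 0.295.

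The ratio of Scn8a to Scn1a in normalized counts ran from 2.36 to 3.63 in wild type and from 2.64 to 3.11 in het-labelled libraries. The log2 difference was 0.54 for both genes, and the mean ratio was 2.90 in wild type and 2.86 in het-labelled libraries.

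The size of these differences depended on single libraries. Without wild-type library 3, Scn1a had a log2 fold change of 0.78 (limma-trend adjusted p 0.0238), which passed, and Scn8a had 0.76 with an adjusted p of 0.0507, which did not. Without wild-type library 1 the log2 fold change of Scn8a was 0.30 and that of Scn1a was 0.40. Without the 2 libraries low in Xist (wild-type library 1 and library 5) it was 0.28 for Scn8a and 0.41 for Scn1a. Both transcripts are long (8386 bases for Scn1a and 11436 for Scn8a). After removal of each library's trend of deviations with transcript length, the log2 fold change was 0.27 for Scn8a (limma-trend adjusted p 0.557) and 0.33 for Scn1a (adjusted p 0.455).

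Neuron markers were counted beside Scn8a and Scn1a. Of the 22 neuron genes, 10 were higher in het-labelled libraries and 12 were lower, with a median log2 fold change of -0.02. Their summed level was lowest in wild-type library 1 and highest in wild-type library 3. Their mean log2 value was lowest in library 7 (12.32), with 12.36 in wild-type library 1, and highest in wild-type library 3 (12.63). 2 of the neuron genes (9.09%, against 14.1% of all genes), Pvalb and Stmn3, had an unadjusted limma-trend p under 0.05, both lower, and are named here for that. In the authors' deposited table their FDR was 0.0559 and 0.0337. Their transcripts are short (977 and 1136 bases), and the mean of the list was not corrected for length. With the mean of this list subtracted from each library, the log2 fold change was 0.61 for Scn8a and 0.62 for Scn1a, with limma-trend adjusted p of 0.254 and 0.253. In bulk tissue, more cells of a type and more RNA per cell cannot be told apart.

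**Figure D2:**
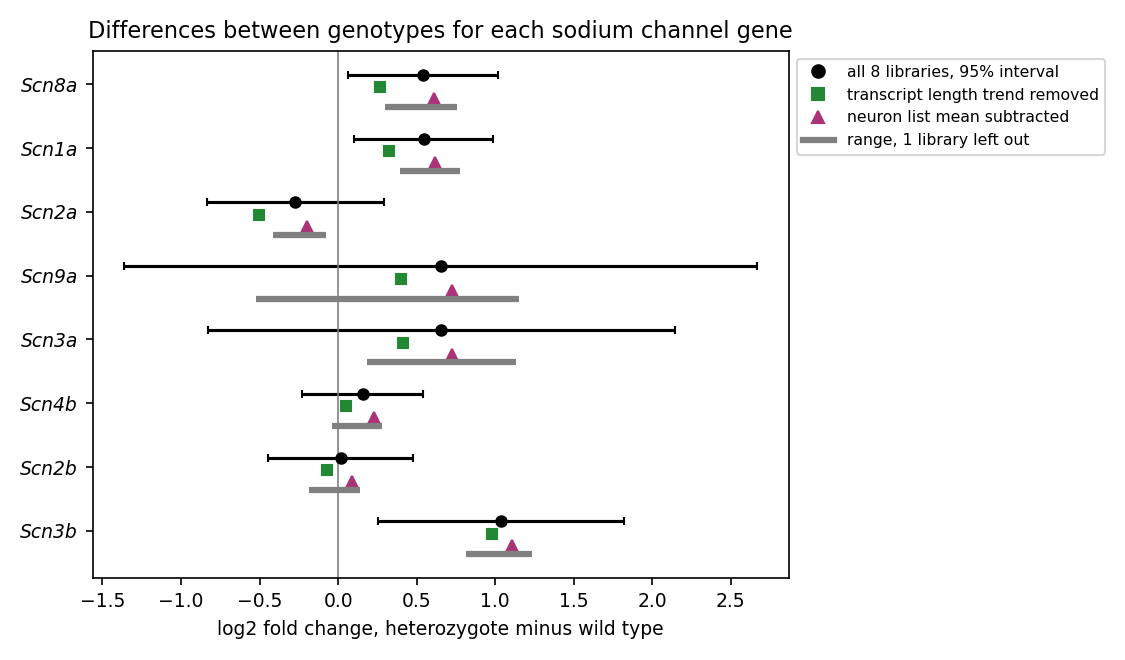
Log2 fold change (het-labelled libraries minus wild type, horizontal axis) for each gene: black circles with 95% intervals from limma-trend on all 8 libraries, green squares after the length trend was removed, purple triangles after the neuron list mean was subtracted, and grey bars for the range with 1 library left out. The intervals of Scn8a, Scn1a and Scn3b exclude 0, none of the 3 passes after adjustment over all genes, and the green squares of Scn8a and Scn1a lie at 0.27 and 0.33.

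Scn2a, for Nav1.2, was the 1 gene with a negative value. It had 107.7, 102.0, 207.1 and 158.2 normalized counts in wild-type libraries 1 to 4 and 112.2, 100.6, 110.5 and 135.4 in libraries 5 to 8. The log2 difference was -0.27 (SE 0.26, 95% interval -0.83 to 0.29), and limma-trend gave an adjusted p of 0.633. The groups overlapped, with wild-type libraries 3 and 4 above all others.

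The Scn8a to Scn2a ratio was examined because Nav1.6 and Nav1.2 replace each other at maturing nodes, and a ratio within a library does not depend on its size factor. The ratio was 21.7, 37.5, 29.2 and 25.5 in wild-type libraries 1 to 4. It was 52.7, 54.9, 44.1 and 45.5 in libraries 5 to 8, labelled heterozygote. All 4 of those lay above every wild-type library, although each gene alone overlapped between the groups. On the log2 scale the ratio was 4.79 ± 0.33 in wild type and 5.60 ± 0.15 in het-labelled libraries (SD, n = 4 each), a difference of 0.81. An exact permutation test, two-sided, gave p = 0.0286, which is the lowest possible with 4 against 4. It was 0.0857 after adjustment over the 3 ratios tested, which does not pass 0.05. The ratios were chosen with earlier results of these data known, so these p-values are descriptive only. With the length trend removed the difference was 0.77, and it ran from 0.66 to 0.95 over the 12 alternatives tried.

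The Scn1a to Scn3a ratio, a mature against an embryonic channel, had log2 values of 6.06 ± 1.16 in wild type and 5.95 ± 0.87 in het-labelled libraries (SD, n = 4 each), and the exact permutation test gave a two-sided p of 0.914 (adjusted 0.914). The Scn4b to Scn2b ratio was 4.53 ± 0.68 and 4.67 ± 0.27 on the log2 scale (SD, n = 4 each), and the exact permutation test gave a two-sided p of 0.771 (adjusted 0.914). Neither differed by more than the spread between libraries.

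**Figure D3:**
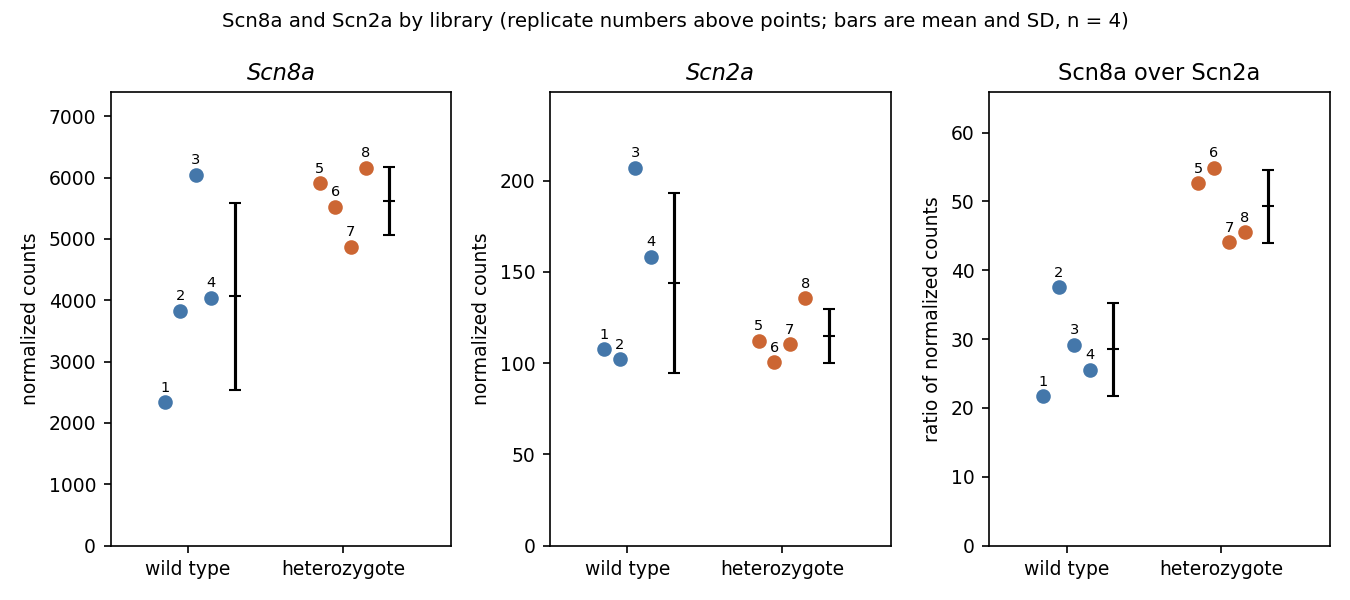
Normalized counts of Scn8a and Scn2a and their ratio by library, with replicate numbers above the points and mean ± SD (n = 4) beside them. Scn8a and Scn2a overlap between the groups, and the ratio runs from 21.7 to 37.5 in wild type and from 44.1 to 54.9 in het-labelled libraries.

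Markers of the glia of the central nerve segment moved with genotype beside this ratio. In the oligodendrocyte list, 10 of 12 genes were lower in het-labelled libraries. Of these, 3 had a limma-trend adjusted p under 0.05, against 0.0807% of all genes tested in either direction. The summed level was 121669 to 155228 normalized counts in wild type and 65729 to 84941 in the others. In the astrocyte list 7 of 8 were lower, with sums of 24015 to 34111 and 13302 to 22076. The oligodendrocyte precursor list was split 3 to 3, with sums of 3712 to 4663 and 3278 to 4243, and Gpr17, a marker of differentiating precursors named after its values were seen, had 380 ± 74.0 normalized counts in wild type and 158 ± 49.1 in the others (SD, n = 4 each). Cspg4, of the same list and also named after its values were seen, went the other way, with 244 ± 21.1 and 313 ± 37.8 normalized counts (SD, n = 4 each). Gpr17 and Cspg4 were the 2 of the 6 genes of that list whose groups did not overlap, against 7.26% of all genes tested. Hair cell markers were higher in 5 of 7 cases, macrophage markers lower in 5 of 6, satellite glia markers lower in 4 of 6 and skeletal muscle markers lower in 2 of 2, with overlapping sums. No gene of these lists that has a row was at 0 in any library. Of the 6 listed skeletal muscle markers, Acta1, Ckm, Myh4 and Tnnt3 have no row. Gfra3, of the 7 listed satellite glia markers, has none either. Scn2a is known from oligodendrocyte precursors as well as neurons. Whether these cells, or reads shared between Scn1a and Scn2a, had a part in the ratio was not tested. For Schwann cells, 7 of 10 markers were lower, and the sums overlapped (123740 to 157379 and 111274 to 153172).

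**Figure D4:**
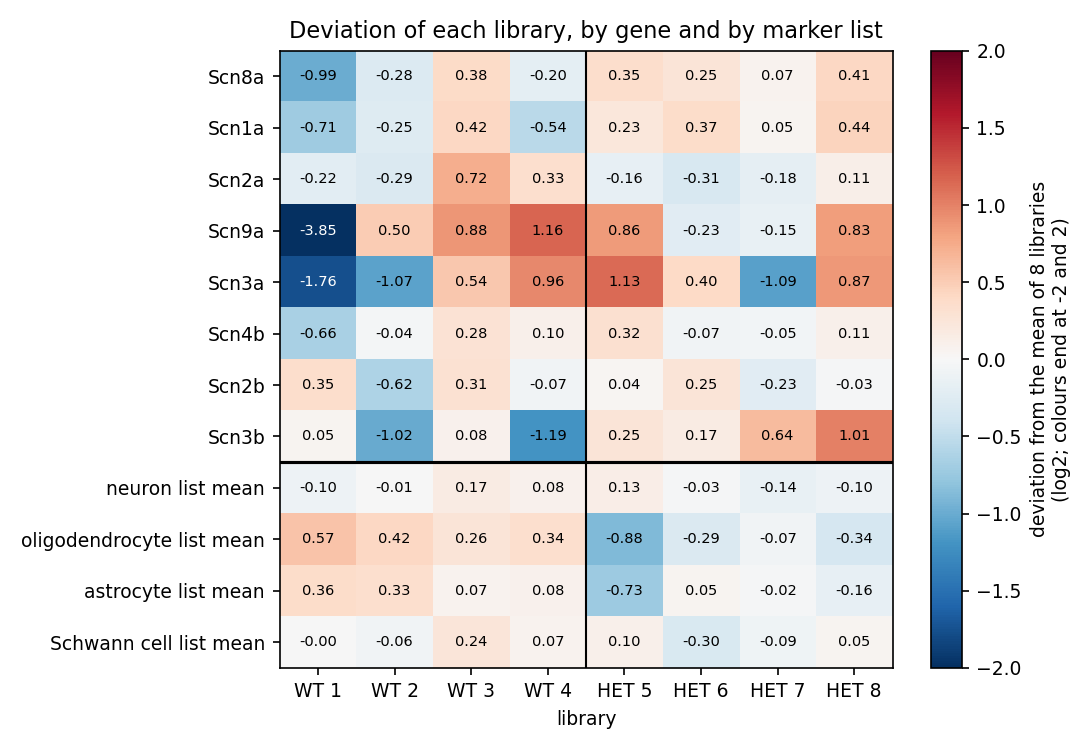
Deviation of each library from the mean of the 8 libraries on the log2 scale, for each sodium channel gene (above the line) and for the mean of 4 marker lists (below it); WT is wild type and HET labelled heterozygote. Wild-type library 1 deviates most in Scn9a (-3.85) and Scn3a (-1.76). It is also low for Scn8a (-0.99), Scn1a (-0.71) and Scn4b (-0.66) and high for Scn2b (0.35). Wild-type library 3 is high for Scn2a (0.72).

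Scn9a, for Nav1.7, and Scn3a, for Nav1.3, had the lowest mean normalized counts of the 8 genes. Scn9a had 1.3 normalized counts in wild-type library 1, about 1 read, against 45.8 to 72.9 in the other wild-type libraries and 27.1 to 58.8 in het-labelled libraries. Its log2 difference was 0.65 (SE 0.92), and it was -0.52 without wild-type library 1. Scn3a had 6.5, 11.1, 35.9 and 48.4 normalized counts in wild type and 54.4, 32.4, 10.9 and 45.4 in libraries 5 to 8, which is 5 to 50 reads. Its log2 difference was 0.66 (SE 0.68), with 0.666 as the limma-trend adjusted p. Neither gene differed by more than the spread between libraries.

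Scn3b, for the non-covalently bound beta 3 subunit, had the largest difference among the beta genes. Wild-type libraries 1 to 4 had 75.3, 35.5, 77.0 and 31.4 normalized counts. Libraries 5 to 8, labelled heterozygote, had 86.9, 81.9, 114.0 and 148.1. All 4 lay above every wild-type library, with the smallest gap between wild-type library 3 and library 6. It was the only one of the 8 genes whose groups did not overlap, against 7.26% of all genes tested, 3.4% higher and 3.86% lower. The log2 difference was 1.04 (SE 0.36, 95% interval 0.25 to 1.82), for a limma-trend p of 0.0137 and, over all genes, an adjusted p of 0.278. With the length correction it was 0.98, and with 1 library left out 0.81 to 1.24. The values rest on 26 to 158 estimated reads per library.

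Scn4b and Scn2b did not differ detectably. Scn4b had 5567, 8553, 10666 and 9389.8 normalized counts in wild-type libraries 1 to 4 and 10959.9, 8384, 8476 and 9460.4 in libraries 5 to 8. Its log2 fold change was 0.16, with a 95% interval of -0.23 to 0.54 (limma-trend adjusted p 0.692). Wild-type library 1 was the lowest here as for Scn8a and Scn1a. Scn2b had 460.7, 234.2, 447.3 and 343.0 normalized counts in wild type and 371.5, 430.4, 307.2 and 353.5 in libraries 5 to 8. Its log2 fold change was 0.02, with a 95% interval of -0.44 to 0.48. In Scn2b, wild-type library 1 was the highest of all, unlike in the neighbouring gene Scn4b.

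In the authors' deposited table, p was 0.0238 for Scn1a, 0.0310 for Scn8a and 0.00823 for Scn3b, with FDR values of 0.245, 0.271 and 0.156. The ratios of the authors' deposited table were 1.40, 1.38 and 1.97. For Scn9a and Scn2b the log2 ratios in the authors' deposited table were -0.06 and -0.02, so that 5 of the 8 genes had a positive log2 ratio there, against 7 with a positive value here. None of the 8 genes had an FDR under 0.05 in the authors' deposited table, where 1.61% of genes did.

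Of the other sodium channel genes, Scn7a, for a sodium-sensing channel of glia and some neurons, had a log2 difference of 0.40 (limma-trend adjusted p 0.405). Scn4a, Scn10a and Scn11a were not analysed here.

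Among 28 partners of the channels, 24 had a positive and 4 a negative log2 fold change, and 52.3% of all genes had a positive one. The median log2 fold change was 0.17 for the partners and 0.02 over all genes, and 0 partners passed the adjusted threshold. Some partner transcripts are long (14305 bases for Ank2), and length-corrected values are not given for the partners. 3 had an unadjusted limma-trend p under 0.05 (10.7%, against 14.1% of all genes). Of these, Nedd4, for a ubiquitin ligase of membrane proteins, and Sptbn1, for a beta spectrin, were higher (log2 fold changes 0.25 and 0.32). Bcan, for brevican, a proteoglycan of the perinodal matrix, had 2369 ± 169 normalized counts in wild type and 1739 ± 125 in het-labelled libraries (SD, n = 4 each), a log2 difference of -0.45 (limma-trend p 0.000398, adjusted 0.123). It was the 1 of the 28 partners whose groups did not overlap, against 7.26% of all genes tested. In the authors' deposited table the FDR of Bcan was 0.0027. Ptprz1, for a receptor phosphatase that binds sodium channels, had -0.30 with an adjusted p of 0.379.

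Among the anchoring genes of this list, Ank3, for ankyrin-G, had a log2 fold change of 0.23, Sptbn4, for beta-IV spectrin, 0.13, Nfasc, for neurofascin, 0.26, and Nrcam 0.16, with limma-trend adjusted p of 0.393, 0.760, 0.433 and 0.575. The fibroblast growth factor homologous factors bind the intracellular tail of alpha subunits and shape inactivation. Fgf12 had 4003 ± 1210 normalized counts in wild type and 4585 ± 992 in het-labelled libraries (SD, n = 4 each). The log2 fold changes were 0.06 for Fgf11, 0.22 for Fgf12, 0.26 for Fgf13 and 0.24 for Fgf14, with limma-trend adjusted p from 0.610 to 0.929. Bace1, for the protease that cleaves beta subunits, had 0.12 with an adjusted p of 0.715.

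The genes whose profile over the 8 libraries was most like each channel gene were named by the highest Pearson r on the log2 scale, over 8 libraries of 2 genotypes. They are the best of all tested genes and so high by choice. For Scn1a these were Gabbr2 (r = 0.998), Kank4 (0.991) and Vgll3 (0.986). For Scn8a they were Pacsin1, a neuronal endocytosis adaptor gene (0.997), Ap1g1 (0.997) and Tcaf1 (0.995), and for Scn4b Parvb (0.995), Trim2 (0.990) and Ttc19 (0.988). Scn3b was most like Gfi1 (0.991), Cxcl14 (0.982) and Tnc, for tenascin C (0.981). For Scn2a they were Tyw3 (0.961), 4930570G19Rik (0.954) and Tardbp (0.941), and for Scn2b Oxsm (0.955), Rnasek (0.954) and Gm26559 (0.933).

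The promoter windows of RefSeq (GRCm38.p6, 300 bases around the start of transcription) matched Scn1a, Scn2a, Scn8a, Scn9a, Scn2b and Scn4b, with 8 windows in all. The MEF2 consensus motif was found on either strand in 0 of the 8 windows, against 3.19% of 32851 windows of the same length. This says only that these letters are not in these windows.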

How the data were processed

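Poly(A) libraries were made from auditory nerves of 8 mice with a strand-keeping kit, and samples with low RNA integrity were left out, per the labels' protocols. STAR, Partek, DESeq2 and mm10 are named in the submitters' processing notes, with no role or version. The authors deposited 1 table, whose signal columns hold read counts per gene divided by a size factor per library, as judged from the values. Its other columns are, per the file headers, a p-value and FDR, the ratio of group means, that ratio as log2, and a signed fold change (a score, not used). Low values fell on multiples of a step per library, taken as 1 read (88.5% to 91.8% whole within 0.05). The reads estimated from it gave the depths and served limma-voom as an alternative.

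A gene was tested if 4 or more libraries had 10 or more normalized counts (14870 of 15035), as log2(value + 1), so fold changes of low genes are understated. limma-trend was fitted to all 8 libraries with genotype alone, and p was adjusted over every tested gene by Benjamini-Hochberg (threshold 0.05). Alternatives were pseudocounts of 0.1 and 10, other filters and scalings, the length trend, low Xist, a residual component, the neuron list and each library left out. On simulated data with 200 changed genes among 14870, 69.9% of 2-fold and 92.5% of 4-fold changes were recovered, with 8 false calls. The simulated noise was drawn for each gene on its own, without variation that genes of a library share. These figures therefore need not hold for the real comparison. Ratios used two-sided exact permutation tests. Lengths are those of the longest GENCODE M21 transcript, found by symbol for 97.6% of genes. The length trend is a loess fit (span 0.5) of each library's deviations. Named genes were all members, other family genes (some are not reported here), set partners (the homologous factors, anchors and Bace1), the 2 partners with the smallest p in each direction, and the 3 genes most like each member with a mean of at least 50. Of each marker list the counts, median and sums were used. The members, lists and tests were chosen with earlier results of these data known. Each mouse gave 1 library, and counting error is small beside the spread between mice except for the lowest genes. Versions were 3.58.1 for limma (under R 4.3.3), 2.3.3 for pandas, 2.4.6 for numpy and 3.10.9 for matplotlib (under Python 3.11.15).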

Additional observations from a re-analysis of the deposited data

How the results depend on the processing

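No paired analysis was possible because the groups share no replicate numbers. Scn8a, Scn1a, Scn3b and Scn2a kept their direction in all 20 alternatives. Scn8a passed once the leading residual component entered as a covariate (log2 fold change 0.54, limma-trend adjusted p 0.0328, range over alternatives 0.0328 to 0.617). That component was taken from these same data after the genotype means were removed. It could therefore lower the SE (0.11 for Scn8a) but not move the fold change, and the pass is no separate support. The same applies to its count over all genes given below. Scn1a passed without wild-type library 3 only, and Scn3b and Scn2a in none. Without the 2 libraries low in Xist, the log2 fold change turned to -0.086 for Scn3a, -0.70 for Scn9a and -0.12 for Scn4b, and the length correction gave -0.071 for Scn2b. With 1 library left out, log2 fold changes ran from 0.40 to 0.78 for Scn1a, -0.52 to 1.15 for Scn9a, -0.19 to 0.14 for Scn2b and -0.036 to 0.28 for Scn4b. The number of the 8 genes with an unadjusted p under 0.05 was 1 with the length correction, 1 without the libraries low in Xist and 0 to 3 with 1 library left out (0 when library 8 and 1 when wild-type library 1 was omitted). Among all tested genes, 2090 of 14870 had such a p in the main fit and 1616 of 14517 after length correction. Omitting library 8 gave 1177 of 14811, wild-type library 1 1758 of 14784 and wild-type library 3 3408 of 14826. Dropping both low-Xist libraries gave 1996 of 14719. The number of the 8 genes without overlap was 0 with quantile normalization and 1 to 3 with 1 library left out (3 without wild-type library 3). Omitting a library can only remove overlap between the groups, and the matching share of all genes is not given for these settings. Over all genes, the number past the adjusted threshold was 7 with quantile normalization, 31 with the length correction, 576 with the principal component and 0 to 221 with 1 library left out. Omitting wild-type library 3 gave 221, and omitting wild-type library 2, wild-type library 4 or library 8 gave 0, where 1912, 1446 and 1177 genes had an unadjusted p under 0.05. Omitting library 5 gave 7 and omitting library 7 gave 6.

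The log2 difference in the Scn8a to Scn2a ratio was 0.66 without the libraries low in Xist (two-sided exact permutation p 0.1) and 0.69 to 0.95 with 1 library left out, where p was 0.0571 without any one of libraries 5 to 8 and 0.0286 without any one wild-type library. The ratios of the groups do not overlap, so each of these p-values is the lowest or next lowest possible with so few libraries. They cannot show whether the difference is weaker without those libraries. The Scn1a to Scn3a difference was 0.10 with a pseudocount of 10, 0.50 without the libraries low in Xist and -0.63 to 0.22 with 1 library left out. The Scn4b to Scn2b difference was -0.24 without the libraries low in Xist and -0.17 to 0.36 with 1 library left out. The cause of these shifts was not tested. Scn3a gave no value with a minimum of 50. Estimated reads were 1 to 65 per library for Scn9a and 5 to 50 for Scn3a.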
